A study of Homo sapiens with 12 samples.

Results

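The genes described here are the replication-dependent histone genes, taken as every gene whose name in the authors' RNA table begins with HIST1H, HIST2H, HIST3H or HIST4H. The rule found 70 genes among the 19038 of the RNA table and the 19037 of the footprint table. By class they were 6 H1, 17 H2A, 18 H2B, 14 H3 and 15 H4 genes. Ribosome footprints and RNA were sequenced from tumours of 22Rv1, a human prostate cancer cell line, grown under the skin of male NSG mice that had been injected with the cells at an age of 6 to 8 weeks. The tested tumours came from mice given zotatifin by intraperitoneal injection at 0.3 mg/kg in 5% dextrose, and the vehicle tumours from mice given 5% dextrose. All were taken at 6 h. Each group had 3 libraries per assay, and footprint and RNA libraries of a tumour came from the same lysate. All tumours are of 1 cell line, and NSG mice lack lymphocytes but keep fibroblasts, vessels and myeloid cells, so the lysates also held mouse RNA.

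Replication-dependent histones package newly copied DNA. The core histones H2A, H2B, H3 and H4 form the nucleosome particle, and the linker histone H1 binds where DNA enters and leaves it. Their mRNAs are made in S phase, carry a conserved 3′ stem-loop bound by SLBP in place of a poly(A) tail, and are short with brief leaders. Zotatifin holds the helicase eIF4A on purine-rich stretches of mRNA leaders, and the footprint comparison asks which mRNAs gained or lost ribosomes relative to the other mRNAs after treatment.

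The genes lay in 6 stretches of the genome (GRCh38.p14 positions of RefSeq, to which all 70 genes were matched, 65 by name and 5 by elimination among shared synonyms). The 55 HIST1 genes filled 3 stretches of chromosome 6, with 34 genes at 25726063 to 26285534, 5 at 27132316 to 27147562 and 16 at 27807479 to 27893891. The 11 HIST2 genes lay on chromosome 1 at 149782689 to 149887965, the 3 HIST3 genes on chromosome 1 at 228424845 to 228458558, and HIST4H4 alone on chromosome 12 at 14770720 to 14771131. Each gene was annotated as protein-coding.

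Promoter motifs differed in frequency between most classes, and examples are shown because the classes are compared below. H2A and H2B had similar shares of each motif. RefSeq windows were found for 65 genes, and the 250 bases before the start were searched on both strands. In the class figures the windows of a gene count together as 1, with the motif if any of them held it. The share over all windows counts each window on its own. The H1 box AAACACA was in 6 of 6 H1 windows and in 0 of the 59 others, against 4.82% of all RefSeq windows of this length. The octamer ATTTGCAT was in 11 of 16 H2A windows, 14 of 18 H2B windows, 1 of 12 H3 windows and 0 of the H1 and H4 windows, against 1.63% of all windows. GGTCCG, taken here as the core of the H4 element, was in 12 of 13 H4 windows, 1 of 16 H2A, 1 of 18 H2B, 1 of 12 H3 and 0 of 6 H1 windows, against 9.43% of all windows. The CCAAT box was in all 52 windows of the other classes and in 3 of 13 H4 windows, against 32% of all windows. The TATA box TATAAA was in 3 of 6 H1, 12 of 16 H2A, 12 of 18 H2B, 10 of 12 H3 and 7 of 13 H4 windows, against 10.7% of all windows. Read on the other strand, CCAAT ends in letters with which GGTCCG begins, so these motifs can overlap. In 11 cases an H2A and an H2B gene started back to back, 193 to 247 bases apart, so that their windows share letters and their motif counts are not independent.
Capitals mark the H1 box, the CCAAT box and the TATA box in HIST1H1E, the octamer in HIST1H2BI, the CCAAT and TATA boxes in HIST2H3A, and the H4 element in HIST2H4A. Between HIST2H2BE and HIST2H2AC they mark the octamer and the CCAAT and TATA boxes, read on either strand. That stretch also holds GGTCCG on each strand, left unmarked here. The copy on the plus strand overlaps a CCAAT box, and the copy on the minus strand does not. Each stretch is on the plus strand of GRCh38.p14 and ends at the base before a start site. In the order printed they are chr6:26156209-26156328, chr6:26272871-26272930, chr1:149852518-149852607, chr1:149832577-149832656 and chr1:149886683-149886917. HIST1H2BI is among the 5 genes placed by elimination, and its stretch depends on that match.
HIST1H1E: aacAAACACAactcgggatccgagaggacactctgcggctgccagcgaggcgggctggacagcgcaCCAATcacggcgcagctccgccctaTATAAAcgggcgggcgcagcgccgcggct
HIST1H2BI: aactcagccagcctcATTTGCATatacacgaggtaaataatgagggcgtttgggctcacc
HIST2H3A: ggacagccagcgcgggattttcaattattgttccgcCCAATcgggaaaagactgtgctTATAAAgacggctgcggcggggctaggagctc
HIST2H4A: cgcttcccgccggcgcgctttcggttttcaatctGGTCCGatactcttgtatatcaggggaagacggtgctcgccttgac
HIST2H2BE-HIST2H2AC: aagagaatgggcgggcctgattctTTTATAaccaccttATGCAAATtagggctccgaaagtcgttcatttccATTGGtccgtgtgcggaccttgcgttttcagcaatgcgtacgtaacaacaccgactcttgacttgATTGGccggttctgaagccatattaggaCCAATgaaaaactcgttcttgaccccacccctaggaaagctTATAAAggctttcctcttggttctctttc

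The first 50 bases of the histone transcripts were compared with those of other genes, since zotatifin acts on purine-rich leaders. Their median purine share was 38% for H1, 41% for H2A, 38% for H2B, 48% for H3 and 50% for H4, against 52% over 35116 RefSeq windows. The median of the longest purine run was 3 bases for H1, 5 for H2A, 3.5 for H2B, 4 for H3 and 5 for H4, against 5 over all windows.

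Footprint libraries held 838135 to 1540867 counts from zotatifin tumours and 1592316 to 2013968 from vehicle tumours. RNA libraries held 6594884 to 8153674 counts from zotatifin tumours and 5761921 to 7121802 from vehicle tumours (n = 3 each). All 10 prostate tumour markers had counts in both assays. The summed level of 10 fibroblast markers was 140 to 257 CPM (counts scaled to library size by the TMM method) in zotatifin footprints and 461 to 794 CPM in vehicle footprints. In RNA it was 69.2 to 132 CPM with zotatifin and 216 to 362 CPM with vehicle, and none of the 10 markers was at 0. The 8 myeloid markers summed to 31 to 65 CPM in zotatifin footprints and 69.9 to 318 CPM in vehicle footprints, with CD14 at 0. In RNA they summed to 10.6 to 19.8 CPM with zotatifin and 15.9 to 48.7 CPM with vehicle, with TYROBP at 0. Over all genes tested, 3.22% rose and 3.92% fell in footprints. In RNA 0.808% rose and 0.907% fell, and 0.444% rose in TE, the footprint change relative to RNA. Of 6 fibroblast markers tested, 5 fell in footprints (COL1A1, COL1A2, COL3A1, SPARC and FBN1, log2 changes of −1.97 to −1.24) and 4 in RNA (the same without COL3A1, −1.88 to −1.25). LUM changed by −0.61 in footprints and by 0.47 in RNA, without a call. Of the 4 myeloid markers tested in footprints, PTPRC and CSF1R fell (−3.86 and −1.42), and of 3 tested in RNA, CSF1R fell (−2.60). The 6 red cell markers summed to 139 to 172 CPM in zotatifin footprints and 127 to 326 CPM in vehicle footprints, with overlap. In RNA they summed to 17.2 to 23.7 CPM with zotatifin and 20.5 to 37.9 CPM with vehicle, also with overlap. Among them the globin genes HBE1 and HBG1 fell in footprints (−1.59 and −1.51) and HBB in RNA (−1.51). Footprints of HBA1, HBA2 and HBB changed by 0.14, 0.15 and −1.57, without a call. Among the prostate markers, FOXA1 and KRT18 rose in footprints (0.57 and 0.37) and FOXA1 in TE (0.68). RNA of the prostate markers gave 0 calls by edgeR and 1 higher by DESeq2, with 2 higher and 1 lower at an unadjusted p under 0.05. Of these calls, those of SPARC and PTPRC in footprints and of COL1A2 and FBN1 in RNA were made whichever library was left out, and the others missed the threshold without at least 1 library (adjusted p up to 0.331). Reads were not separated by species, so the counts of these markers were not assigned to mouse or human cells. Fewer mouse cells and less RNA per such cell also cannot be told apart in these bulk samples. The part of the mouse cells in the histone changes was not tested, and their histone mRNAs are close in sequence to the human ones.

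Histone mRNAs took up a larger share of the footprints after zotatifin, and about the same share of the RNA. They held 5.47, 7.35 and 6.01% of all footprint counts in zotatifin tumours 1, 2 and 3, against 4.71, 5.02 and 4.5% in vehicle tumours. Every zotatifin value lay above every vehicle value, with a difference of 1.53 percentage points (exact permutation test, two-sided, p = 0.1; groups of 3 allow no smaller value). Of the RNA counts they held 1.34, 1.9 and 1.46% in zotatifin tumours, against 1.26, 1.6 and 1.47% in vehicle tumours. These ranges overlapped (exact permutation test, p = 0.7). Zotatifin tumour 2, the library with the fewest footprint counts, was highest in both assays.

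Of the 70 genes, 66 passed the low-count filter in footprints and 59 in RNA. Footprints rose in 36 of the 66 and fell in 0, with 65 estimates above 0. The test was edgeR's quasi-likelihood test with Benjamini-Hochberg adjustment over all 9544 genes, called at an adjusted p under 0.05, and over all these genes 3.22% rose and 3.92% fell. Among genes with a mean of at least 200 footprint counts, 7.33% rose. The median log2 change, zotatifin over vehicle, was 0.40 for the 66 genes and 0.003 for all genes. In 44 of the 66, all zotatifin libraries lay above all vehicle libraries, which held for 12.9% of all genes tested. The number of calls depended on single libraries. It was 42, 20 and 30 when zotatifin library 1, 2 or 3 was left out. Over all genes, 216 of 9826, 209 of 9822 and 265 of 9839 rose in those fits. The histone count was 10, 37 and 18 when vehicle library 1, 2 or 3 was left out. There 84 of 9761, 283 of 9767 and 195 of 9751 of all genes rose. Only 10 of the 36 calls were made whichever library was left out, namely 1 of 2 in H1, 2 of 9 in H2A, 4 of 13 in H2B, 3 of 8 in H3 and 0 of 4 in H4.

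RNA of the same genes gave no call. None of 59 genes rose or fell by edgeR, where 0.808% of 13118 genes rose and 0.907% fell, and DESeq2 called 0 as well. The unadjusted p was under 0.05 for 2 higher genes, HIST1H1D and HIST1H2BE, and for 1 lower gene, HIST1H4I. The median log2 change was 0.10, against −0.0023 over all genes. Without zotatifin library 2, RNA of HIST1H4I fell (log2 change −0.77, edgeR adjusted p = 0.0316).

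The change of footprints relative to RNA, called translational efficiency (TE), was estimated for each gene as an assay-by-treatment interaction. It was above 0 in 57 of 59 genes, with a median log2 change of 0.28 against −0.01 over all genes. By edgeR 0 of the 59 rose or fell, where 0.444% of 9454 genes rose and 1.6% fell. At an unadjusted p under 0.05, 14 were higher and 0 lower. With the tumour as a block, which pairs the footprint and RNA libraries of a lysate, 23 of the 59 rose and 0 fell, where 3.14% of all genes rose and 6% fell. These 23 were 1 H1, 11 H2A, 5 H2B, 4 H3 and 2 H4 genes. The blocked count was 15, 21 and 12 without zotatifin tumour 1, 2 or 3. Over all genes, 208 of 9723, 162 of 9726 and 208 of 9738 rose in those fits. The histone count was 26, 11 and 10 without vehicle tumour 1, 2 or 3. There 199 of 9669, 206 of 9668 and 215 of 9649 of all genes rose. Of the 23 calls, 7 were made whichever tumour was left out. DESeq2, with its own filter, called 1 gene, HIST1H2BI.

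**Figure D1:**
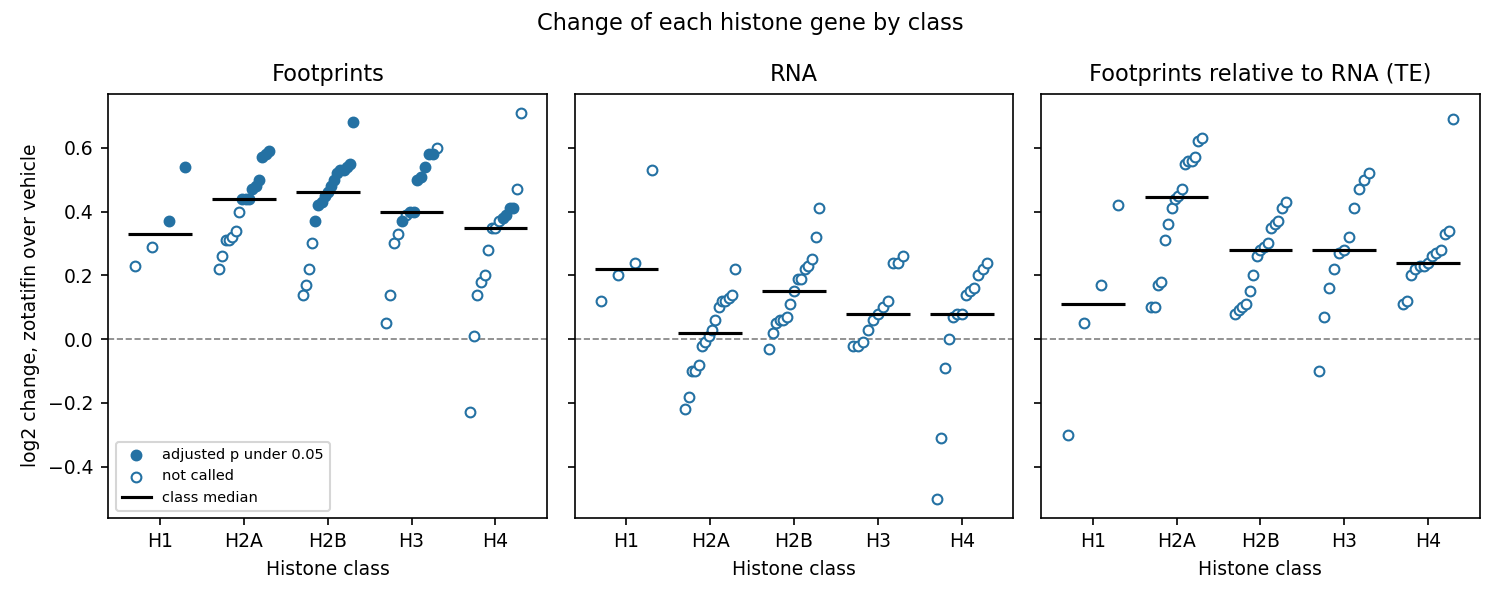
Log2 change (zotatifin over vehicle) of each tested histone gene in footprints, RNA and TE, by class, from the fits without a block. Filled points have an edgeR adjusted p under 0.05 and bars are class medians; 36 points are filled in footprints and 0 in RNA and TE.

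Because paralogs share near-identical coding sequence, counts were also summed over each class, and the 5 sums were tested among the other genes of the table. A sum does not depend on how reads were split within a class, if no read was dropped or counted for several genes. Whether that held is not given in the sources used here. Footprints of H1, H2A, H2B and H3 rose, where 2.98% of 9483 rows rose and 3.85% fell in this fit, and those of H4 did not pass. The log2 change was 0.41 ± 0.10 for H1 (SE, edgeR adjusted p = 0.0103), 0.40 ± 0.11 for H2A (adjusted p = 0.0267), 0.44 ± 0.11 for H2B (adjusted p = 0.0123) and 0.51 ± 0.11 for H3 (adjusted p = 0.00603). For H4 it was 0.34 ± 0.12 (adjusted p = 0.0773), which passed with DESeq2 (0.34, adjusted p = 0.0444) and with no low-count filter (0.33, edgeR adjusted p = 0.019). Each of these calls rested on some libraries. H1 was lost without vehicle library 1 (adjusted p = 0.0854), as was H3 (adjusted p = 0.0634). H2A missed the threshold when zotatifin library 2 (adjusted p = 0.133), vehicle library 1 (0.132) or vehicle library 3 (0.0866) was left out. H2B missed it when zotatifin library 2 (adjusted p = 0.0505) or vehicle library 1 (0.0805) was left out. H4 passed without zotatifin library 1 (adjusted p = 0.0328). Without the member with the most counts, the sums changed by 0.33 (H4) to 0.49 (H3), and the same 4 classes were called. For H2A, H3 and H4 the member left out was HIST2H2AA4, HIST2H3C and HIST2H4A. Each has a near-identical copy that stayed in the sum, so for these classes the check says little.

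In every library, the H1 sum was 4730, 5440 and 4990 CPM in zotatifin footprints, against 3620, 4010 and 3810 CPM in vehicle footprints. The H2A sum was 11700, 15800 and 12100 CPM with zotatifin and 9760, 10700 and 9500 CPM with vehicle. The H2B sum was 12100, 16200 and 13300 CPM with zotatifin and 10000, 10600 and 10000 CPM with vehicle. Zotatifin tumour 2 was the highest library for all 3 sums, and no zotatifin library fell into the range of the vehicle libraries. The H3 sum was 12200, 17100 and 13300 CPM with zotatifin and 9600, 10700 and 9610 CPM with vehicle, again without overlap. The H4 sum was 14800, 21000 and 16200 CPM with zotatifin and 13600, 15000 and 12600 CPM with vehicle, and here zotatifin tumour 1 lay below vehicle tumour 2.

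RNA of the 5 class sums had log2 changes of 0.18 ± 0.14 (H1), 0.06 ± 0.15 (H2A), 0.15 ± 0.15 (H2B), 0.12 ± 0.15 (H3) and 0.12 ± 0.17 (H4). None passed by edgeR (adjusted p from 0.516 to 0.886, lowest unadjusted p 0.21) or DESeq2, where 0.896% of 13064 rows rose and 1.02% fell by edgeR, and the ranges of the groups overlapped in every class. Without zotatifin library 2, the RNA estimates of H2A, H2B, H3 and H4 lay below 0, between −0.14 and −0.05.

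**Figure D2:**
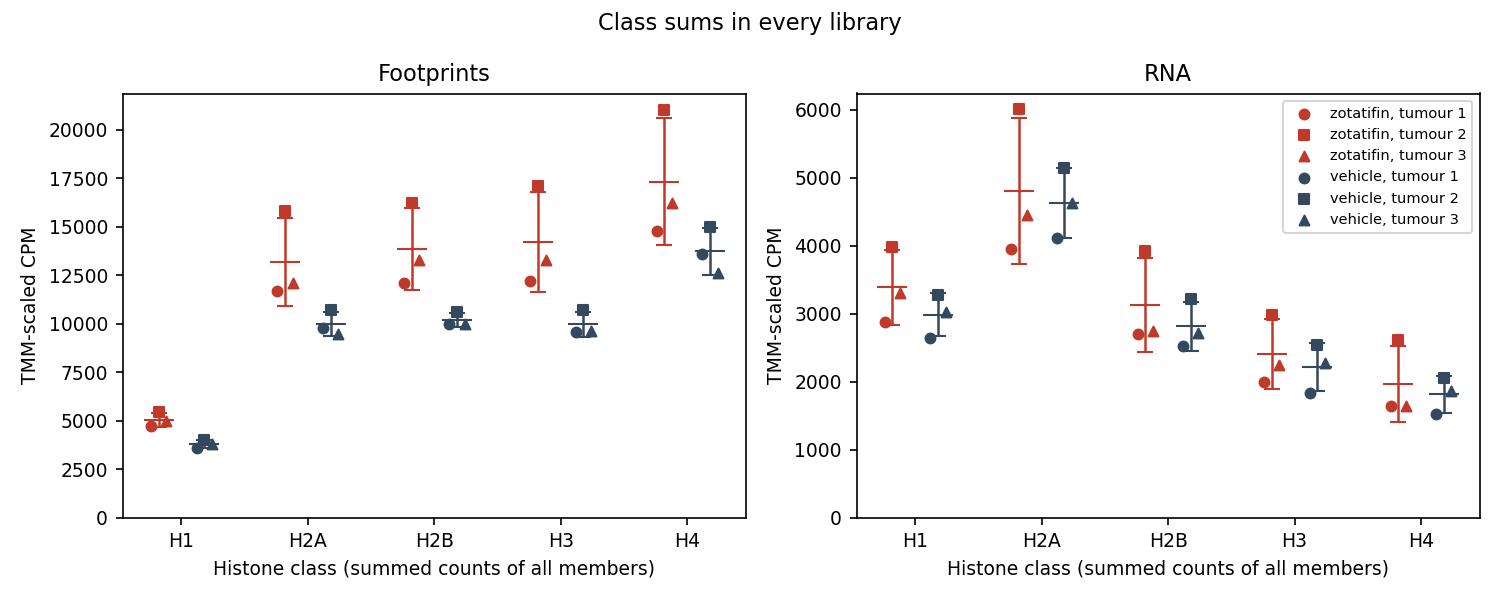
Summed TMM-scaled CPM of each histone class in every footprint library (left) and RNA library (right), zotatifin beside vehicle, with the mean and SD (n = 3). Zotatifin footprint values lie above all vehicle values except for H4, while RNA values overlap in every class.

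Classes also differed in how many footprints they had per RNA read, in the same order in all 6 tumours. On the log2 scale, footprint CPM over RNA CPM was lowest for H1, then H2A, H2B and H3, and highest for H4. For H1 it was 0.72, 0.45 and 0.59 in zotatifin tumours, against 0.45, 0.29 and 0.33 in vehicle tumours. For H4 it was 3.17, 3 and 3.3 in zotatifin tumours, against 3.16, 2.86 and 2.75 in vehicle tumours. No H1 value came near an H4 value. Means over 3 tumours were 1.46 ± 0.09 with zotatifin and 1.11 ± 0.12 with vehicle for H2A (SD), 2.16 ± 0.12 and 1.86 ± 0.13 for H2B, and 2.56 ± 0.05 and 2.18 ± 0.18 for H3. Median RefSeq gene spans ran from 766 bases for H1 over 497 for H2A, 484.5 for H2B and 509.5 for H3 to 401 for H4. The counted region is not given in the sources used here, so what part length, multi-mapping or translation has in this order was not tested.

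The ratio was higher with zotatifin in each class, without overlap for H1 (before rounding), H2A, H2B and H3 (exact permutation test, p = 0.1 each, the smallest possible) and with overlap for H4 (exact permutation test, p = 0.2). As a TE change it was 0.23 ± 0.17 for H1, 0.35 ± 0.20 for H2A, 0.30 ± 0.19 for H2B, 0.39 ± 0.20 for H3 and 0.22 ± 0.23 for H4 (SE, edgeR adjusted p from 0.37 to 0.694, lowest unadjusted p 0.0655). Neither edgeR nor DESeq2 called a class, where 0.511% of 9400 rows rose and 1.67% fell by edgeR. With the tumour as a block, H3 rose (0.38 ± 0.13, edgeR adjusted p = 0.0476, where 2.91% of rows rose), and H2A missed the threshold (0.35 ± 0.13, adjusted p = 0.0726). The H3 call was kept without vehicle tumour 1 (adjusted p = 0.0391) and lost without any of the other 5 (adjusted p from 0.056 to 0.221).

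**Figure D3:**
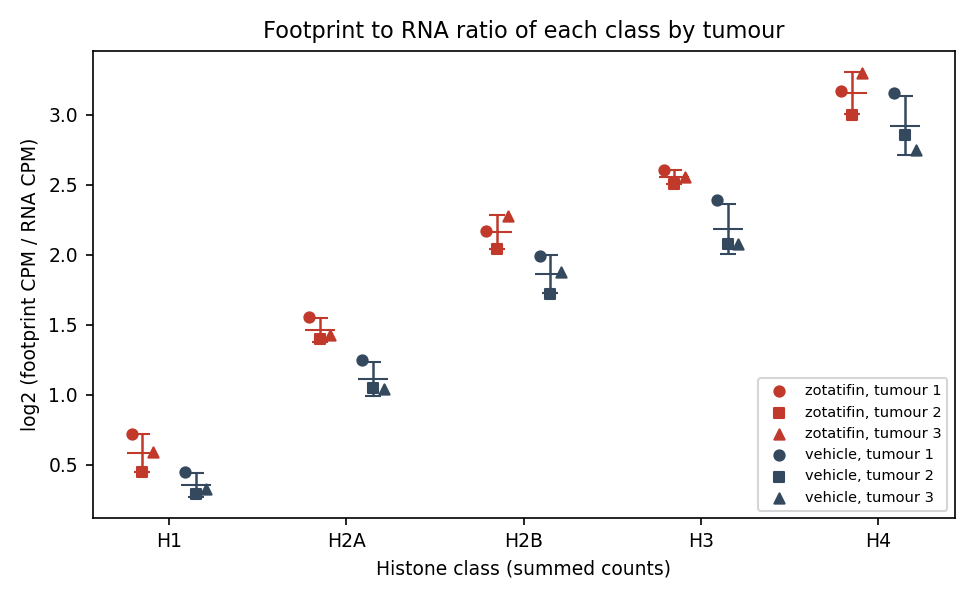
Log2 ratio of footprint CPM to RNA CPM for the summed counts of each histone class in each tumour, zotatifin left of vehicle, with the mean and SD (n = 3). The ratio rises from H1 to H4 in all 6 tumours, and the treatments overlap for H4.

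A further measure set each class against the other 4 within a library, as the log2 ratio of their summed counts. In footprints H3 was higher with zotatifin, at −1.83, −1.78 and −1.81, against −1.95, −1.91 and −1.9 with vehicle. The groups did not overlap, and the difference of 0.115 had an exact permutation p of 0.1, or 0.5 adjusted over 10 tests. H4 differed by −0.111 in the opposite direction, with overlap (exact permutation p = 0.2). In RNA, H2A was lower with zotatifin, at −1.22, −1.17 and −1.16, against −1.05, −1.11 and −1.09 with vehicle, a difference of −0.096 without overlap (exact permutation p = 0.1, adjusted p = 0.5). None of the 10 differences could pass after adjustment with 3 libraries a group. As percentages of all histone footprints, H3 held 22.3 ± 0.305% with zotatifin and 20.9 ± 0.274% with vehicle, and H4 held 27.2 ± 0.609% and 28.7 ± 0.959% (SD, n = 3).

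Of the 6 linker histone genes, 4 passed the footprint filter and 2 rose, HIST1H1B and HIST1H1E. HIST1H1B (ENSG00000184357, chromosome 6, 27866792 to 27867588), which encodes H1.5, had 1710, 1940 and 1780 CPM in zotatifin footprints, against 1310, 1470 and 1410 CPM in vehicle footprints (log2 change 0.37 ± 0.10, SE, edgeR adjusted p = 0.0237). Its RNA was 1250, 1650 and 1360 CPM with zotatifin and 1030, 1420 and 1250 CPM with vehicle (0.20 ± 0.14, adjusted p = 0.463). Footprints stood apart between the treatments and RNA overlapped. HIST1H1E (ENSG00000168298, chromosome 6, 26156329 to 26157115), which encodes H1.4, had 1670, 1990 and 1820 CPM in zotatifin footprints, against 1200, 1310 and 1260 CPM in vehicle footprints (0.54 ± 0.10, adjusted p = 0.0015). Its RNA was 1010, 1460 and 1240 CPM with zotatifin and 1110, 1150 and 1160 CPM with vehicle. HIST1H1E was the only H1 gene whose TE rose with the tumour as a block (0.43 ± 0.12, adjusted p = 0.0112), and its footprint call held without any 1 library. The blocked TE call was lost without zotatifin tumour 1, vehicle tumour 1 or vehicle tumour 3 (adjusted p up to 0.0651). The HIST1H1B call depended on zotatifin library 3 (adjusted p = 0.0536 when it was left out), vehicle library 1 (0.152) and vehicle library 3 (0.0608). HIST1H1C, for H1.2, had 1300, 1460 and 1340 CPM in zotatifin footprints, against 1080, 1170 and 1100 CPM in vehicle footprints (0.29 ± 0.10, edgeR adjusted p = 0.072; DESeq2 adjusted p = 0.0207). HIST1H1D, for H1.3, had 46, 44.1 and 53.7 CPM with zotatifin and 38.3, 45.5 and 40.7 CPM with vehicle (0.23 ± 0.17, adjusted p = 0.451). Its RNA estimate, 0.53 ± 0.25 (adjusted p = 0.272), was the highest of the class. HIST1H1A and the testis form HIST1H1T stayed below the filter, with 6 and 43 footprint counts over the 6 libraries.

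Of 17 H2A genes, which with H2B form the outer dimers of the nucleosome, 16 passed and 9 rose, from 0.44 to 0.59. The smallest estimate was 0.22 for HIST1H2AE and the largest 0.59 for HIST1H2AK. HIST2H2AA3 and HIST2H2AA4 are copies whose footprint counts had a ratio of 0.984 to 1.01 in every library and whose promoter windows share 299 of 300 bases, so they count as 1 measurement. HIST2H2AA3 (ENSG00000203812, chromosome 1, 149842218 to 149842750) had 2070, 2600 and 2060 CPM in zotatifin footprints, against 1760, 1930 and 1740 CPM in vehicle footprints (0.31 ± 0.11, edgeR adjusted p = 0.0781). HIST2H2AA4 had 2050, 2620 and 2090 CPM with zotatifin and 1780, 1920 and 1740 CPM with vehicle (0.31 ± 0.11, adjusted p = 0.0757). DESeq2 called both (adjusted p = 0.0373 and 0.0362). HIST2H2AC (chromosome 1, 149886918 to 149887411) had 1190, 1500 and 1190 CPM in zotatifin footprints, against 914, 1040 and 909 CPM in vehicle footprints (0.44 ± 0.11, edgeR adjusted p = 0.0126). That call was lost without vehicle library 1 (adjusted p = 0.0961) or 3 (adjusted p = 0.0547). HIST1H2AI (ENSG00000196747, chromosome 6, 27808173 to 27808667) had 831, 1240 and 939 CPM with zotatifin and 670, 700 and 656 CPM with vehicle (0.57 ± 0.12, adjusted p = 0.00322), also called without any 1 library. Its RNA was 319, 482 and 340 CPM with zotatifin and 336, 411 and 387 CPM with vehicle (0.01 ± 0.15, adjusted p = 0.987). The groups stood apart in footprints and overlapped in RNA.

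H2A was the class with the most blocked TE calls. Among HIST1 genes, 10 of 11 tested H2A genes rose in TE with the tumour as a block, where 3.14% of all genes rose. Their median was 0.49. Of 4 HIST2 H2A genes 0 rose, with a median of 0.19, the near-identical HIST2H2AA3 and HIST2H2AA4 being 2 of these 4. Paralogs within HIST1 can share reads as well, so these genes are not independent measurements. The H2A class sum was not called with the block (0.35 ± 0.13, edgeR adjusted p = 0.0726). Of the HIST1 calls, those of HIST1H2AH, HIST1H2AI, HIST1H2AJ, HIST1H2AL and HIST1H2AM held without any 1 tumour. Whether these clusters differ was not tested. Their RNA medians were −0.01 for HIST1 and 0.14 for HIST2, and their footprint medians 0.47 and 0.32. HIST3H2A (chromosome 1, 228457364 to 228457873) had the largest TE estimate of the class, 0.63 ± 0.21 without a block (edgeR adjusted p = 0.122) and 0.63 ± 0.12 with it (adjusted p = 0.000168). Its footprints were 224, 335 and 209 CPM with zotatifin and 188, 201 and 182 CPM with vehicle, and its RNA 150, 214 and 144 CPM with zotatifin and 183, 209 and 199 CPM with vehicle.

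Of 18 H2B genes, 17 passed the footprint filter and 13 rose, from 0.37 to 0.68. HIST2H2BF (ENSG00000203814, chromosome 1, 149782689 to 149812370) had 1550, 2170 and 1680 CPM in zotatifin footprints, against 1230, 1300 and 1200 CPM in vehicle footprints (0.53 ± 0.11, SE, edgeR adjusted p = 0.00383). HIST1H2BK (ENSG00000197903, chromosome 6, 27138293 to 27146858) had 1250, 1570 and 1330 CPM with zotatifin and 915, 979 and 981 CPM with vehicle (0.53 ± 0.10, adjusted p = 0.00211). Both calls held without any 1 library, as did those of HIST3H2BB and HIST1H2BI. HIST2H2BE (chromosome 1, 149884459 to 149886682), the partner of HIST2H2AC, had 1360, 1950 and 1550 CPM with zotatifin and 1110, 1160 and 1120 CPM with vehicle (0.52 ± 0.11, adjusted p = 0.00488, lost without vehicle library 1 at 0.0544). HIST1H2BD had 975, 1300 and 1090 CPM with zotatifin and 885, 972 and 877 CPM with vehicle (0.30 ± 0.11, adjusted p = 0.0914). It passed without zotatifin library 1 (adjusted p = 0.0495). The smallest estimate of the class was 0.14 for HIST1H2BG. RNA of the 4 genes with these library values changed by 0.15 to 0.25, with edgeR adjusted p from 0.386 to 0.651.

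The H2A and H2B genes that start back to back allow a comparison between classes within a shared promoter. Of the 11 pairs, 10 were tested in all comparisons, and 8 of the 11 hold the octamer between the starts. The median footprint change over the 10 pairs was 0.46 for the H2A and 0.46 for the H2B partners. The RNA estimate of the H2B gene was above that of its H2A partner in 9 of 10 pairs, with medians of 0.02 for H2A and 0.09 for H2B. In turn the TE estimate of the H2A gene was above that of its H2B partner in 9 of 10 pairs, with medians of 0.45 for H2A and 0.32 for H2B. TE is the footprint change relative to RNA, so this order is not independent of the RNA order. These pairs share the 12 libraries and reads with their paralogs, so the counts are a description without a test. HIST2H2AC and HIST2H2BE, whose shared stretch is printed above, had RNA estimates of 0.13 and 0.15.

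All 14 H3 genes passed the footprint filter and 8 rose, from 0.37 to 0.58. H3 with H4 forms the inner tetramer of the nucleosome. HIST2H3A and HIST2H3C are copies with footprint count ratios of 0.983 to 1.01 and promoter windows sharing 296 of 300 bases. HIST2H3A (ENSG00000203852, chromosome 1, 149852608 to 149853125) had 2910, 4080 and 3120 CPM in zotatifin footprints, against 2140, 2420 and 2190 CPM in vehicle footprints (0.58 ± 0.12, SE, edgeR adjusted p = 0.00219). HIST2H3C had 2890, 4090 and 3170 CPM with zotatifin and 2130, 2420 and 2230 CPM with vehicle (0.58 ± 0.12, adjusted p = 0.00219). Both calls held without any 1 library. RNA of HIST2H3A was 344, 484 and 380 CPM with zotatifin and 322, 417 and 420 CPM with vehicle (0.06 ± 0.14, adjusted p = 0.866), with overlap. HIST1H3B (chromosome 6, 26031589 to 26032099) had 1740, 2640 and 2050 CPM in zotatifin footprints, against 1510, 1510 and 1380 CPM in vehicle footprints (0.54 ± 0.12, adjusted p = 0.00485), and this call also held without any 1 library. HIST2H3D had 1490, 2050 and 1520 CPM with zotatifin and 1090, 1340 and 1140 CPM with vehicle (0.50 ± 0.12, edgeR adjusted p = 0.00849). It was lost without vehicle library 1 (adjusted p = 0.0961). All 3 HIST2 H3 genes rose in TE with the tumour as a block, by 0.51 (HIST2H3A, adjusted p = 0.00298), 0.49 (HIST2H3C, adjusted p = 0.00427) and 0.47 (HIST2H3D, adjusted p = 0.00553), and so did HIST1H3H, with the copies HIST2H3A and HIST2H3C counted separately. These calls were lost without vehicle tumour 3 (HIST2H3A, 0.0634), vehicle tumour 2 (HIST2H3C, 0.0641), either of these tumours (HIST2H3D, up to 0.0564), or zotatifin tumour 1 or 3 or vehicle tumour 3 (HIST1H3H, up to 0.143). The smallest footprint estimate of the class was 0.05 for HIST1H3I, and the largest 0.60 for HIST1H3G (adjusted p = 0.29), a gene with 102 footprint counts in all.

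All 15 H4 genes passed the footprint filter and 4 rose, HIST1H4J, HIST1H4K, HIST1H4C and HIST2H4B. Each of these 4 calls was lost when at least 1 library was left out. HIST2H4A and HIST2H4B are copies with footprint count ratios of 0.991 to 1.01 and identical promoter windows of 300 bases. HIST2H4A (ENSG00000270882, chromosome 1, 149832657 to 149833052) had 2430, 3510 and 2610 CPM in zotatifin footprints, against 2120, 2400 and 2080 CPM in vehicle footprints (0.37 ± 0.12, SE, edgeR adjusted p = 0.0532). HIST2H4B had 2410, 3500 and 2630 CPM with zotatifin and 2110, 2380 and 2080 CPM with vehicle (0.38 ± 0.12, adjusted p = 0.0492). The copies thus lay on either side of the threshold with nearly equal values. HIST2H4A was called by DESeq2 (adjusted p = 0.0324) and by edgeR with no filter (0.0119), with TMM factors from non-histone genes (0.0467), with the replicate block (0.0252), without zotatifin library 1 (0.0241) and without vehicle library 2 (0.0455). Leaving out zotatifin library 2 (adjusted p = 0.229), zotatifin library 3 (0.0536), vehicle library 1 (0.21) or vehicle library 3 (0.146) ended the HIST2H4B call. HIST1H4E had 1820, 2630 and 1960 CPM with zotatifin and 1670, 1780 and 1560 CPM with vehicle (0.35 ± 0.12, adjusted p = 0.0647; DESeq2 adjusted p = 0.0443). HIST1H4H had 1610, 2180 and 1620 CPM with zotatifin and 1550, 1760 and 1390 CPM with vehicle (0.20 ± 0.12, edgeR adjusted p = 0.32). Here the groups overlapped. RNA of these 4 genes changed by 0.08 to 0.16, with adjusted p from 0.704 to 0.883, and zotatifin tumour 2 was the highest RNA library for each.

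HIST1H4I (ENSG00000276180, chromosome 6, 27139282 to 27139678) had the largest TE estimate and the lowest RNA estimate of the 59 members tested in both, among which HIST1H2BI is not. Its RNA was 20.1, 30.4 and 17.1 CPM with zotatifin and 27.8, 35.2 and 32 CPM with vehicle (−0.50 ± 0.19, SE, edgeR adjusted p = 0.163). Its footprints were 208, 242 and 206 CPM with zotatifin and 177, 217 and 180 CPM with vehicle (0.18 ± 0.11, adjusted p = 0.37). The TE estimate was 0.69 ± 0.22 without a block (adjusted p = 0.0984) and 0.72 ± 0.16 with it (adjusted p = 0.00122, at most 0.0322 with a tumour left out). The largest footprint estimate of the class was 0.71 for HIST1H4G (adjusted p = 0.121) and the smallest −0.23 for HIST1H4F (adjusted p = 0.582), the only tested member below 0. HIST4H4 on chromosome 12 had 221, 314 and 247 CPM in zotatifin footprints, against 255, 269 and 245 CPM in vehicle footprints (0.01 ± 0.12, adjusted p = 0.972), with overlap.

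Among the clusters, summed footprints rose for HIST1 (0.40 ± 0.11, SE, edgeR adjusted p = 0.0306), HIST2 (0.45 ± 0.12, adjusted p = 0.0147) and HIST3 (0.50 ± 0.11, adjusted p = 0.00551), where 2.97% of 9482 rows rose and 3.81% fell, and HIST4, which is 1 gene, was not called (0.01 ± 0.12, adjusted p = 0.962). The HIST3 sum was 1020, 1440 and 1050 CPM with zotatifin and 815, 881 and 776 CPM with vehicle. RNA of the cluster sums gave no call by edgeR (lowest unadjusted p 0.155) or DESeq2, where 0.896% of 13063 rows rose and 1.02% fell by edgeR, with estimates of 0.12 (HIST1), 0.14 (HIST2), −0.08 (HIST3) and −0.31 (HIST4). Leaving out zotatifin library 2 (adjusted p = 0.133), zotatifin library 3 (0.0555), vehicle library 1 (0.131) or vehicle library 3 (0.0966) ended the HIST1 call. The HIST2 call ended when zotatifin library 2 (adjusted p = 0.0805) or vehicle library 1 (0.1) was left out, and the HIST3 call when vehicle library 1 was (0.059). TE of the HIST3 sum was 0.59 ± 0.20 without a block (edgeR adjusted p = 0.129, where 0.511% of 9399 rows rose and 1.66% fell) and rose with the tumour as a block (0.60 ± 0.11, adjusted p = 0.000165, where 2.88% of 9399 rows rose), also without any 1 tumour (adjusted p from 0.000311 to 0.00694). HIST1 and HIST2 were not called in TE with the block (adjusted p = 0.208 and 0.122). Within HIST1, 12 of 30 tested genes rose in footprints in the stretch of 34 genes. In the middle stretch 3 of 5 rose and in the last stretch 13 of 16, against 3.22% of all genes tested. Median changes in these stretches were 0.36, 0.44 and 0.44, and a difference between the stretches was not tested.

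A group of 7 genes had footprints but almost no RNA counts: HIST1H2BH, HIST1H2BI, HIST1H3F, HIST1H3G, HIST3H3, HIST1H4F and HIST1H4G. Together they held 1.32% of histone footprint counts and 0.026% of histone RNA counts. HIST1H2BI (chromosome 6, 26272931 to 26273412) had 2887 footprint counts and 26 RNA counts over the 6 libraries of each assay. HIST1H2BH had 720 and 11 such counts, HIST3H3 1020 and 36, and HIST1H4G 133 and 0. Footprint counts per RNA count were 111 for HIST1H2BI and 65.5 for HIST1H2BH. How reads that match several paralogs were counted is not given in the sources used here, and its part in these values was not tested. Of the 7, HIST1H2BI, HIST1H2BH and HIST1H3F rose in footprints. HIST1H2BI had 324, 493 and 448 CPM in zotatifin footprints, against 260, 259 and 270 CPM in vehicle footprints (0.68 ± 0.12, SE, edgeR adjusted p = 0.00098), the largest rise among the called members. Its RNA was 0.242, 0.156 and 0.265 CPM with zotatifin and 1.05, 1.47 and 0.834 CPM with vehicle. With no low-count filter its TE rose by 2.81 (edgeR adjusted p = 0.00298), and by 2.98 with DESeq2 (adjusted p = 0.00582).

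**Figure D4:**
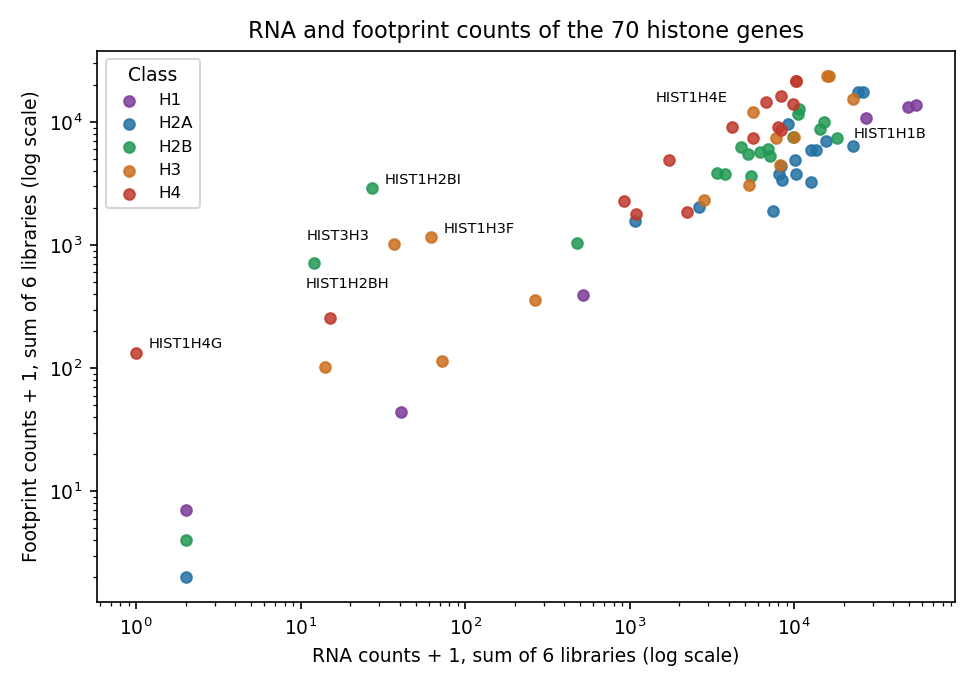
Footprint counts against RNA counts of the 70 histone genes, each summed over 6 libraries plus 1 and drawn on log axes, coloured by class. HIST1H2BI, with 2887 footprint and 26 RNA counts, and HIST1H4G, with 133 and 0, are among the 7 genes with few RNA counts that lie above the main cloud.

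In the authors' deposited TE table, 60 members had a value, and 49 had an estimate above 0 with an FDR under 0.05, where 8.09% of 11446 genes did. No member of the authors' deposited table had such an FDR with an estimate below 0. These values come from the same libraries by another model, so the count is not an independent repeat. For HIST1H1E the FDR of its z test was 1.39e-55, where edgeR gave an adjusted p of 0.208 without a block and 0.0112 with it. The median estimate of members in the authors' deposited table was 0.221 and that of all genes 0.00171, on a natural log scale read from the values. In the authors' deposited RNA table, 58 members had an adjusted p, none of them under 0.05, where 1.17% of genes rose, and the lowest was 0.237.

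Lists of other genes of histone supply were counted in the same fits. Over all genes 3.22% rose and 3.92% fell in footprints, 0.808% and 0.907% in RNA, and 0.444% and 1.6% in TE, and counts this small per list are given as description. Of 12 replication-independent histones, whose mRNAs are not made in S phase alone, 2 rose in footprints and 1 fell, 1 rose in RNA, and 1 rose and 1 fell in TE. Their median changes were 0.15 in footprints, 0.30 in RNA and −0.14 in TE. H2AFX, the DNA damage variant whose mRNA can also end in a stem-loop, had 523, 663 and 504 CPM in zotatifin footprints, against 385, 387 and 336 CPM in vehicle footprints (0.60 ± 0.11, SE, edgeR adjusted p = 0.00131). The linker variant H1FX rose by 0.47 ± 0.10 (adjusted p = 0.00553, lost without vehicle library 1 at 0.0548). The macroH2A gene H2AFY had 251, 221 and 291 CPM with zotatifin and 322, 320 and 356 CPM with vehicle (−0.38 ± 0.11, adjusted p = 0.036). That call was lost without any library but zotatifin library 3 (adjusted p up to 0.135). In TE, H2AFX rose by 0.63 ± 0.17 (adjusted p = 0.0491, lost without any 1 tumour, up to 0.17) and H2AFY changed by −0.70 ± 0.16 (adjusted p = 0.0165). The H2AFY call in TE depended on zotatifin tumours 1 and 2 and vehicle tumours 1 and 3 (adjusted p up to 0.109 when one was left out). RNA of H1F0 rose by 0.57 ± 0.12 (adjusted p = 0.0235, up to 0.13 when zotatifin library 3 or vehicle library 1 or 3 was left out).

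Factors that make and process histone mRNA gave no call. Of 15 tested in footprints, 0 rose or fell by edgeR and 0 by DESeq2, with 1 higher and 1 lower at an unadjusted p under 0.05 and a median of 0.03. SLBP, the stem-loop binding protein, had 410, 336 and 433 CPM in zotatifin footprints, against 373, 400 and 388 CPM in vehicle footprints (0.03 ± 0.11, edgeR adjusted p = 0.902). Of 27 histone chaperones and carriers, 0 rose in footprints and 3 fell, with a median of −0.08. These were ANP32E, which removes the variant H2A.Z (−0.77 ± 0.11, adjusted p = 5.69e-05), SET, a chaperone and phosphatase inhibitor (−0.69 ± 0.11, adjusted p = 0.000187), and RBBP7, a subunit of histone deacetylase and acetyltransferase complexes (−0.63 ± 0.10, adjusted p = 0.000454). All 3 held without any 1 library. TE fell for the same 3, by −1.17 (RBBP7, adjusted p = 0.000145), −0.86 (SET, adjusted p = 0.003) and −0.62 (ANP32E, adjusted p = 0.0332, lost without any tumour but zotatifin tumour 2, up to 0.154). RNA of RBBP7 rose by 0.54 ± 0.13 (adjusted p = 0.0387, lost without any library but vehicle library 2, up to 0.209). Of 38 S phase genes, 2 rose in footprints and 1 fell, shares near those over all genes, and the median was −0.00084. Their RNA gave 0 calls by edgeR, 1 higher by DESeq2, and 7 higher and 1 lower at an unadjusted p under 0.05. CDT1, a licensing factor, rose by 0.62 ± 0.14 (adjusted p = 0.00566, lost without vehicle library 1 at 0.0792). POLD1, the catalytic subunit of DNA polymerase delta, rose by 0.62 ± 0.14 (adjusted p = 0.00774, up to 0.0594 when zotatifin library 1 or vehicle library 1 was left out). GINS1, a part of the replicative helicase, changed by −0.72 ± 0.14 (adjusted p = 0.00168), a call made whichever library was left out, and in TE by −0.96 ± 0.19 (adjusted p = 0.00463, lost without zotatifin tumour 1 at 0.056).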

How the data were processed

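Footprint and RNA libraries of 12 samples were assigned to 4 groups by their titles and column names, and the number 226 in those names was read as zotatifin. The labels' treatment field disagrees with the titles of 6 samples and was not used. The authors deposited raw counts per transcript for both assays. In the authors' RNA table the mean level is a signal (normalised counts), the fold change is on the log2 scale, the Wald statistic is a score, and each p-value is given with and without adjustment. In the authors' deposited TE table the estimate was read as a natural log, since its slope on the log2 TE change was 0.645 over 1586 genes (the natural log of 2 is 0.693). The submitters' processing notes name the build hg38 and the tools DESeq2, Bowtie2 2.3.5, UMI-tools and cutadapt 2.3, without their roles. For the counted region, the strand setting and reads with several matches, the rule is not given in the sources used here.

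Counts were tested with edgeR 4.0.16 in R 4.3.3 (filterByExpr with a minimum count of 10 and a minimum total of 15, TMM, robust quasi-likelihood fit) on the whole table, with Benjamini-Hochberg adjusted p under 0.05 as a call. "Adjusted p" is this value unless another tool is named. TE was the interaction over all 12 libraries, each assay scaled by TMM on its own. Errors are SE for changes and SD over 3 libraries for levels. DESeq2 1.42.0, other scalings, no filter, blocks and leaving out each library were alternatives. The fits were tested on simulated data drawn without a tumour effect shared by both assays. That test therefore cannot check how the block handles paired libraries. In the footprint and RNA fits, p-values measure the spread between tumours of a group. The TE fit without a block treats the footprint and RNA libraries of a tumour as independent. With the block, its p-values rest on the spread of the footprint to RNA ratio between tumours of a group. Each value is a share of its library, which hides any change common to all genes.

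Replicate numbers were checked on 4889 genes averaging 50 counts or more. Footprint and RNA libraries of 1 treatment and number correlated at 0.217 to 0.44 (6 pairs, deviations from group means), and those with other numbers at −0.381 to 0.119. Across treatments, same-numbered libraries correlated at −0.0947 to 0.181, so the numbers mark tumours within a treatment but were not taken to pair zotatifin with vehicle.

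Library values are given for the 4 members of each class with the most footprint counts and would be given for members called in RNA or in TE without a block, of which there were none. Those called only with the tumour block are given by count and, in part, by name. Others are given by count and range, with the extremes of a class named. HIST3H2A, HIST1H4I, HIST4H4 and the genes with few RNA counts were described after their values were seen. The members and lists were chosen with earlier results of these data known. Protein sequences were not used here. A called gene of the prostate marker list is not reported here.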

Additional observations from a re-analysis of the deposited data

How the results depend on the processing

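The direction of the footprint change and its absence of falls were shared by all alternatives for the member count, which was 36 and ranged from 10 to 42 when 1 library was left out; DESeq2, other scalings, no filter and a replicate block gave 36 to 44. The RNA count stayed at 0 except for 1 fall without zotatifin library 2 (range 0 to 1). The TE count was 0, and 1 with DESeq2, 1 with no filter, 0 to 5 with a tumour left out and 23 with the tumour as a replicate block. Leaving out tumours under the block, an alternative chosen after seeing the data, gave 15, 21, 12, 26, 11 and 10. The block in footprints and RNA, where the numbers do not pair the treatments, gave 44 and 0 calls and changed no call of a class or cluster sum. In TE it brought the calls of H3 (0.38; 0.48 without vehicle tumour 1) and HIST3 (0.60; 0.62, 0.63, 0.55, 0.66, 0.56 and 0.55 with a tumour left out; 0.54 to 0.65 without the block).

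Footprint sums ranged, with a library left out, over 0.35 to 0.46 (H1), 0.25 to 0.49 (H2A), 0.32 to 0.53 (H2B), 0.36 to 0.61 (H3), 0.18 to 0.44 (H4), 0.27 to 0.49 (HIST1), 0.30 to 0.55 (HIST2), 0.33 to 0.60 (HIST3) and −0.12 to 0.12 (HIST4). H4 was called at 0.34 with DESeq2 and at 0.33 with no filter. RNA sums turned direction within −0.14 to 0.18 (H2A), −0.05 to 0.26 (H2B), −0.06 to 0.24 (H3), −0.14 to 0.23 (H4), −0.06 to 0.23 (HIST1), −0.06 to 0.25 (HIST2) and −0.30 to 0.03 (HIST3). So did RNA of HIST1H1E (−0.01 to 0.24), HIST2H2AA4 (−0.05 to 0.29), HIST2H2AA3 (−0.07 to 0.25), HIST2H2AC (−0.02 to 0.24), HIST1H2AI (−0.20 to 0.12; −0.00039 with RLE factors and −0.01 with the replicate block), HIST2H2BE (−0.07 to 0.30), HIST2H3C (−0.10 to 0.21), HIST2H3A (−0.09 to 0.16), HIST2H3D (−0.17 to 0.17), HIST2H4A (−0.18 to 0.31), HIST2H4B (−0.13 to 0.28), HIST1H4E (−0.17 to 0.21) and HIST1H4H (−0.20 to 0.28). TE of HIST1H1C ran from −0.04 to 0.15 and was −0.03 with the block without zotatifin tumour 1 or vehicle tumour 2. With mean log2 CPM in place of sums, the class ratio in footprints turned to −0.03 for H1 and 0.041 for H2A. Causes were not tested. The 838135 to 2013968 counts of the footprint libraries and 3 tumours a group limit what could be called. Over all genes, the 681 footprint calls became 421 with DESeq2 and 185 to 726 with a library left out; the 225 RNA calls became 624 with no filter, 527 with the replicate block and 11 to 396 with a library left out; the 193 TE calls became 864 with the tumour block and 60 to 146 with a tumour left out.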
